A study of Homo sapiens with 6 samples.

Results

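The genes of the cytosolic translation machinery were examined in LX-2 cells, a human line of hepatic stellate cells, the liver cells that lay down scar matrix. They were the protein-coding genes whose symbols start with RPL, RPS (without the RPS6K kinases), EIF or EEF, together with TPT1 and NOB1, which were added by name. The name rule gave 166 genes, of which 164 belonged to the 4 families. A gene was read from its opposite rows, meaning the sum of the non-coding rows of the count tables whose exons overlap, by 50 bp or more, the exons of that gene alone and lie on the other strand. Such a row existed for 23 of the 166 genes, and 16 of them held 100 or more opposite counts over the 6 libraries. Those 16 genes were read, of 1630 genes read in the same way in the whole series, and all 16 passed the filter on low counts. The members were chosen by their names and by this total of opposite counts, with earlier results of these data known. RPS6 reached that total only through its cynaroside libraries. The rows that carry the genes' own names, called own rows here, are given separately; 154 of the 166 held a count and 128 passed the filter.

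All cells were wild-type LX-2. They had been kept for 24 h with FEBJ, an extract of the fruit of Brucea javanica that holds many compounds, with cynaroside, a plant flavone bound to glucose, or with the solvent DMSO as the control. Each of the 3 groups held 2 libraries of total RNA, here called library 1 and library 2. No doses were given in the sources used here. Whether a group's libraries are separate cultures is not stated in the labels, so the p-values measure only the spread between these libraries, which may be technical.

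Ribosomes consist of ribosomal RNA and of the ribosomal proteins of a large subunit (RPL genes) and a small subunit (RPS genes). Initiation factors (EIF genes) bring the mRNA, the start tRNA and the subunits together, and elongation factors (EEF genes) move the ribosome along the message. Many mRNAs of this machinery begin with a C followed by a run of pyrimidines, the 5′ terminal oligopyrimidine or TOP motif, through which the mTORC1 kinase adjusts their translation together. Phosphorylation of initiation factor eIF2 by stress kinases lowers initiation in general.

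Between 1599000 and 4709317 counts per library fell in gene rows (5.48 to 6.12% of all counts), and 87.4 to 88.3% were reads that HTSeq assigned to no feature. The opposite rows of the 1630 genes held 40.5 to 46.3% of the gene-row counts. Whether counting used strand is not given in the sources used here. Whether the reads of an own or opposite row come from the gene or from the other strand cannot be told. An opposite row may count a transcript of its own. Of 10 stellate cell markers, 7 had counts in their own rows, summing to 2057 and 3050 in DMSO, 177 and 226 with FEBJ, and 256 and 543 with cynaroside, while COL1A2, DES and LRAT were at 0. The opposite rows of 4 of the stellate markers held 125724 and 182865 counts in DMSO, 69118 and 96929 with FEBJ, and 67806 and 198933 with cynaroside. Gene-row counts of the same libraries were 2537896 and 3720981 in DMSO, 2507734 and 3524136 with FEBJ, and 1599000 and 4709317 with cynaroside. Own rows of 5 macrophage markers summed to 8 to 40 counts per library, with PTPRC and CD163 at 0, those of 5 endothelial markers to 0 to 2 and those of 5 hepatocyte markers to 0 to 41, with ALB and TTR at 0. Own rows of 5 bile duct markers summed to 3570 to 6179 counts in DMSO and FEBJ libraries and to 836 and 2295 after cynaroside, with KRT19 and EPCAM at 0. The opposite rows of 2 of those markers held 164 and 222 counts in DMSO, 1057 and 1245 with FEBJ, and 62 and 110 with cynaroside. The part of these differences in the results below was not tested.

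The stretches that tie a row to its gene are shown for 4 genes, since the reading rests on them. Capitals mark the coding bases of the mRNA that the opposite row overlaps, and lower case marks coding bases beside them.
RPL23A: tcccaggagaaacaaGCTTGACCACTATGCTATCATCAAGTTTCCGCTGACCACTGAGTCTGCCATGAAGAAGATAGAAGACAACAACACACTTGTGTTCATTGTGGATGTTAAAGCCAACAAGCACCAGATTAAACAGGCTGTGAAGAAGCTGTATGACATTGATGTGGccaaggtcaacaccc
TPT1: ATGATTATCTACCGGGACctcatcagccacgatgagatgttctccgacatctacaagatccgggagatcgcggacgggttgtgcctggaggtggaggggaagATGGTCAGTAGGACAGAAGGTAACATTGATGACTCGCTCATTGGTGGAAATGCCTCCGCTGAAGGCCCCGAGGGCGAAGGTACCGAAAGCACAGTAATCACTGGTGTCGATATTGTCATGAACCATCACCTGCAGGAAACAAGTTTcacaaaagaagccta
EIF2B2: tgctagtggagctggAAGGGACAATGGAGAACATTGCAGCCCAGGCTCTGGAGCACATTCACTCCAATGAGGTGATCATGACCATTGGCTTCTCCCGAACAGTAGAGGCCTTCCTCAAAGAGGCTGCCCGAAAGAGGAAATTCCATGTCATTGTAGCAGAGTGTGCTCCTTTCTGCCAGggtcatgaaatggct
NOB1: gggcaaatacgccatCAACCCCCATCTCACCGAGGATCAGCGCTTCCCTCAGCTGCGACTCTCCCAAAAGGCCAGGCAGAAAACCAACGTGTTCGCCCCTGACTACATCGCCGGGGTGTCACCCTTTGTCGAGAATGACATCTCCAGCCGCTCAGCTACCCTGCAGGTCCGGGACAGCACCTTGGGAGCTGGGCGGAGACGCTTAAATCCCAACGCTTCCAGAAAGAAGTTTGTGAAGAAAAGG
All are in the sense of the mRNA, from the transcripts of GENCODE release 29 on GRCh38. The build named in the submitters' processing notes is hg19, so these positions are those of the annotation and not of the deposited tables. The capitals of RPL23A lie at chr17:28722723-28722877 on the plus strand and those of EIF2B2 at chr14:75004737-75004900 on the plus strand, each within 1 stretch. Those of NOB1 lie at chr16:69742335-69742563 on the minus strand, at the end of the coding sequence, and those of TPT1 are spliced out of chr13:45340039-45341069 on the minus strand.

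How much of a row lay opposite the gene's exons differed between genes. The TPT1 row has 588 exonic bases and all of them lie opposite TPT1 exons. The RPL23A row has 899, of which 155 lie opposite RPL23A exons and 744 within its introns. The NOB1 row is NQO1-DT, the divergent transcript of the neighbouring gene NQO1, with 429 of its 592 bases opposite NOB1. For EIF4A2 the share was 18.1% of the row, for EIF4E2 32.1%, for RPL17 11.2% and for EEF2K 99.2%, where the overlap lies in the 3′ UTR. The counted rows of EIF4E2 and EEF1A1 overlap 0 bases of the coding sequence or UTRs of the gene's main transcript. Their overlaps, of 1194 and 180 bases, lie in exons of other transcripts, and 2531 bases of the EIF4E2 row lie outside the gene. The EIF2AK2 row is annotated as a processed pseudogene, ARL14EPP1. Counts were given per row, so the position of a read within it is unknown. Small RNAs that lie in these overlaps or their introns took almost none of the counts: SNORA72 within RPL30 held 2 counts over the 6 libraries, SNORD4A within RPL23A held 1, and the microRNA rows MIR1539 and MIR5001 held 0.

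The start of the mRNA is shown for 4 genes because the TOP motif sits there. The windows run from 10 bases before the annotated start to 20 bases from it, with the run of pyrimidines in capitals.
RPS6: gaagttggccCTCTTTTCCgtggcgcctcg
EEF1A1: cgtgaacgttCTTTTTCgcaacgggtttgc
RPL38: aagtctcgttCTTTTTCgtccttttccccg
EIF4A2: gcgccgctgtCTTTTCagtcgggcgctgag
They are RefSeq promoters on GRCh38.p14, at chr9:19380217-19380246 and chr6:73521013-73521042 on the minus strand and at chr17:74203668-74203697 and chr3:186783567-186783596 on the plus strand. Promoters were found for 14 of the 16 read genes; RPL23A and RPL30 had no entry. A run was counted where a C within 5 bases of the start opened at least 5 consecutive C or T bases on the gene's strand. It was found in 8 of the 14, namely the genes shown and EEF2K, EIF4E2, NOB1 and TPT1, and not in these windows of RPL10, RPL17, EIF2AK2, EIF2AK3, EIF2B2 and EIF4ENIF1. In EEF2K the run is 5 bases long, opens 5 bases before the annotated start and lies wholly before it, outside the annotated mRNA. Among RefSeq promoters of the same length, 54 of 72 ribosomal protein genes (75%), 22 of 58 EIF and EEF genes (37.9%) and 3406 of 15301 protein-coding genes (22.3%) held such a run. On the other strand the shares were 8.33%, 15.5% and 18.1%.

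Levels below are in CPM, counts of a row per 1e6 counts of all opposite rows, after TMM scaling, and changes are log2 fold changes ± standard error. A gene is said to have risen or fallen where the quasi-likelihood test of edgeR, adjusted by Benjamini-Hochberg over all 1630 genes, gave an adjusted p at or under 0.05, written below as edgeR adjusted p. TPT1 and NOB1 are described without a test, because they entered the set by name with earlier results known. RPS6 is described without one too, since 103 of its 157 opposite counts came from cynaroside and the total would be 96.1 with cynaroside at the DMSO level, under the 100 that a gene had to reach. In bulk RNA, fewer cells of a type and less RNA per cell cannot be told apart. Counts per row are not corrected for length, so levels are compared within a gene and not between genes.

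After FEBJ, 4 of the 13 other family genes rose and 4 fell against DMSO, where 70.2% of all 1630 genes changed, 35.1% upward and 35.2% downward. The risers were RPL30, RPL23A, EIF4A2 and EIF2B2, and those that fell were EIF4E2, EIF4ENIF1, EIF2AK2 and EEF2K. After cynaroside, 6 of the 13 rose (RPL23A, EIF4E2, EIF4A2, EIF4ENIF1, EIF2AK3 and EEF2K) and 2 fell (RPL10 and RPL17), where 41% of all genes changed, 20.7% upward and 20.3% downward. The median change of the 13 was -0.04 after FEBJ and 0.10 after cynaroside, against -0.0048 and 0.0050 over all genes. FEBJ set directly against cynaroside gave 4 genes higher and 5 lower with FEBJ, where 69.9% of all genes differed, and a median of -0.03 against -0.02 over all genes. The cynaroside counts leaned on single libraries: without DMSO library 2 there were 2 risers and 1 faller, without cynaroside library 2 there were 4 and 1, and DESeq2 gave 4 and 1. Scaling the table by the deposited rows moved the median of all genes by 0.24 after FEBJ and by 0.45 after cynaroside, so directions here are relative to the other opposite rows. Over all genes that scaling gave 820 risen and 111 fallen after cynaroside in place of 337 and 331, and over the 13 it gave 9 and 0 in place of 6 and 2.

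**Figure D1:**
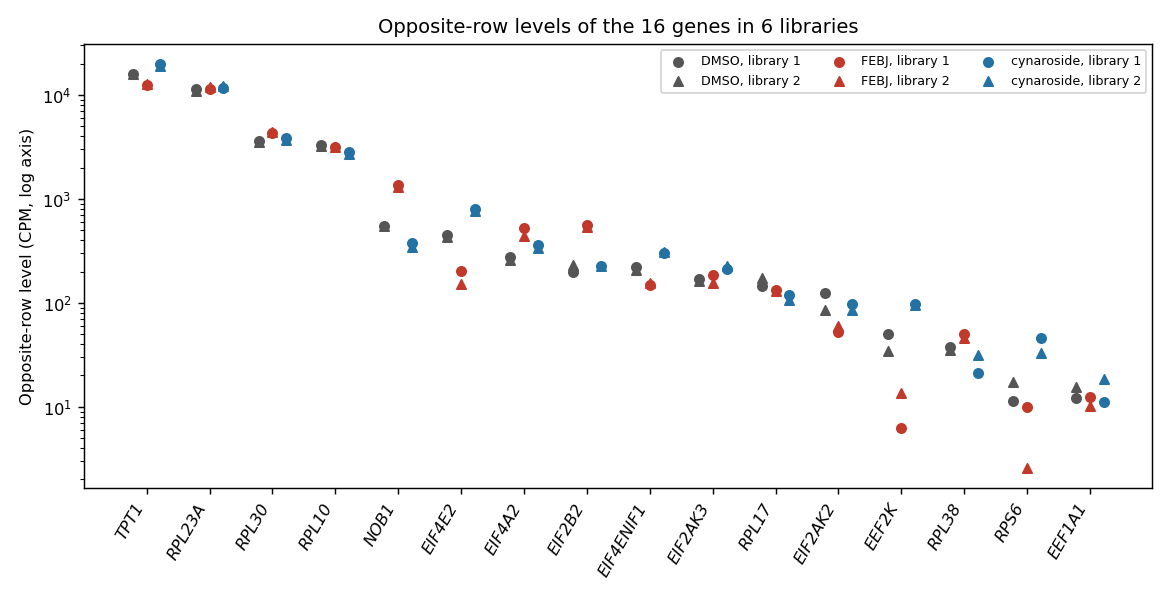
Level of the opposite rows of each of the 16 genes in the 6 libraries, in CPM on a log axis, with 1 point per library and the groups in 3 colours. The ribosomal protein genes RPL23A, RPL30 and RPL10 stay close together across groups, and EIF4E2, NOB1 and EEF2K spread apart.

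Of the 5 large subunit genes that could be read, RPL23A, RPL30 and RPL10 held the most counts and changed by less than the median gene in either treatment, whose change was 0.85 in size after FEBJ and 0.38 after cynaroside. Among the 53 genes with 20000 or more opposite counts the median size was 0.75 after FEBJ and 0.224 after cynaroside. RPL10, at -0.231 after cynaroside, lay slightly beyond the latter. RPL17 and RPL38 differed from DMSO by more than the median of all genes after cynaroside, by -0.52 and -0.42. RPL23A encodes a protein near the exit of the ribosome's peptide tunnel. Its opposite level was 11434 and 10952 CPM in DMSO, 11460 and 12049 with FEBJ, and 11731 and 12261 with cynaroside. Both treated groups lay above DMSO, though FEBJ library 1 and DMSO library 1 were almost level. The rise was 0.07 ± 0.03 after FEBJ (edgeR adjusted p = 0.0236) and 0.10 ± 0.03 after cynaroside (edgeR adjusted p = 0.00265). Neither call held without DMSO library 2 (changes of 0.04 and 0.07) or without cynaroside library 2 (0.06 and 0.05). The FEBJ call was also lost without FEBJ library 2 (0.03). It was lost too with only the 4 libraries compared (edgeR adjusted p = 0.0621) and with an overlap of 1 bp or more (0.0623). For cynaroside DESeq2 gave an adjusted p of 0.0531. Of the 1630 genes, 94.5% changed more than RPL23A after FEBJ.

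RPL30, a large subunit protein that can bind its own transcript in yeast, had an opposite level of 3615 and 3549 CPM in DMSO, 4266 and 4428 with FEBJ, and 3862 and 3680 with cynaroside. The FEBJ libraries were the highest, and no 2 groups overlapped. RPL30 rose by 0.28 ± 0.04 after FEBJ (edgeR adjusted p = 1.38e-09) and was 0.21 ± 0.04 higher with FEBJ than with cynaroside (edgeR adjusted p = 5.00e-06). The change after cynaroside was 0.07 ± 0.04 and was not called (edgeR adjusted p = 0.172). With scaling by the deposited rows it was 0.52 and was called (adjusted p = 1.30e-10), and FEBJ and cynaroside differed by -0.000352.

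RPL10 joins the large subunit late in its assembly. The level was 3301 and 3202 CPM in DMSO, 3138 and 3175 with FEBJ, and 2814 and 2732 with cynaroside. The cynaroside libraries were the lowest. It fell by 0.23 ± 0.05 after cynaroside (edgeR adjusted p = 1.11e-05), and the change of -0.04 ± 0.05 after FEBJ was not called (edgeR adjusted p = 0.419). The direction after cynaroside held only relative to the other opposite rows, since scaling by the deposited rows gave 0.21.

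RPL17 and RPL38 held fewer counts. RPL17, another large subunit protein, stood at 146 and 172 CPM in DMSO, 132 and 130 with FEBJ, and 120 and 105 with cynaroside. It fell by 0.52 ± 0.19 after cynaroside (edgeR adjusted p = 0.0229), a call lost without DMSO library 2 (adjusted p = 0.241), without cynaroside library 2 (0.181), with DESeq2 (0.0825) and with scaling by the deposited rows (0.791). RPL38, known in mice for its part in the translation of Hox mRNAs, stood at 37.7 and 35.5 CPM in DMSO, 50.1 and 46.3 with FEBJ, and 21 and 31.3 with cynaroside. Its groups did not overlap, and no comparison passed the test. FEBJ against cynaroside gave 0.81 ± 0.39 (edgeR adjusted p = 0.0519). That difference was called with RLE scaling (edgeR adjusted p = 0.0474). It was also called with only opposite rows that held at least the own-row counts (0.0388), and with only rows free of coding exons on the same strand (0.0454). Without cynaroside library 2 it was 1.20.

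RPS6 was the small subunit gene that could be read, and its protein is the classic substrate of the S6 kinases below mTORC1. Its opposite row held 157 counts in all, 54 of them outside the cynaroside libraries. The level was 11.3 and 17.4 CPM in DMSO, 9.84 and 2.57 with FEBJ, and 46.1 and 33.2 with cynaroside, with the cynaroside libraries above all others. The log2 changes were 1.40 after cynaroside and -1.32 after FEBJ. No test is read from them, because the cynaroside counts themselves brought the gene over the threshold.

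Genes around the cap and its unwinding differed in direction. EIF4E2 encodes 4EHP, a relative of eIF4E that binds the cap without starting translation and so acts as a repressor. The opposite rows stood at 448 and 429 CPM in DMSO, 202 and 150 with FEBJ, and 801 and 771 with cynaroside, so the 3 groups were well apart with FEBJ lowest. It fell by 1.33 ± 0.12 after FEBJ (edgeR adjusted p = 1.98e-20) and rose by 0.84 ± 0.11 after cynaroside (edgeR adjusted p = 1.32e-11). FEBJ and cynaroside differed by -2.17 ± 0.12 (edgeR adjusted p = 2.82e-40). As given above, the row that held these counts overlaps exons of other EIF4E2 transcripts and not those of the main one.

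EIF4ENIF1, or 4E-T, carries eIF4E into the nucleus and into P-bodies. Its row on the other strand stood at 219 and 206 CPM in DMSO, 149 and 154 with FEBJ, and 305 and 311 with cynaroside. The order of the groups was that of EIF4E2. It fell by 0.48 ± 0.16 after FEBJ (edgeR adjusted p = 0.00403), rose by 0.54 ± 0.15 after cynaroside (edgeR adjusted p = 0.00147) and was 1.02 ± 0.15 lower with FEBJ than with cynaroside (edgeR adjusted p = 1.03e-09). The fall was not called with scaling by the deposited rows (adjusted p = 0.153).

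EIF4A2 encodes an RNA helicase of the cap-binding complex. The opposite row stood at 279 and 259 CPM in DMSO, 520 and 442 with FEBJ, and 363 and 336 with cynaroside, and the groups did not overlap. It rose by 0.84 ± 0.12 after FEBJ (edgeR adjusted p = 7.06e-10) and by 0.37 ± 0.13 after cynaroside (edgeR adjusted p = 0.0119). The cynaroside call was lost without DMSO library 2 (adjusted p = 0.117) and without cynaroside library 1 (0.0637). FEBJ was higher than cynaroside by 0.46 ± 0.12 (edgeR adjusted p = 0.000393; 0.0682 with scaling by the deposited rows).

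Among the genes of the eIF2 step, EIF2B2 had the clearest change. It encodes the beta subunit of eIF2B, which reloads eIF2 with GTP and is blocked by phosphorylated eIF2. Its opposite level was 199 and 234 CPM in DMSO, 562 and 540 with FEBJ, and 225 and 228 with cynaroside, with both cynaroside libraries inside the DMSO range. It rose by 1.34 ± 0.13 after FEBJ (edgeR adjusted p = 3.46e-19) and was 1.28 ± 0.13 higher with FEBJ than with cynaroside (edgeR adjusted p = 9.30e-18). The change after cynaroside was 0.06 ± 0.14 (edgeR adjusted p = 0.750), but 0.51 and called with scaling by the deposited rows (adjusted p = 0.00143).

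EIF2AK3 and EIF2AK2 encode the eIF2 kinases PERK, a sensor of misfolded proteins in the endoplasmic reticulum, and PKR, a sensor of double-stranded RNA. The EIF2AK3 opposite level was 169 and 161 CPM in DMSO, 187 and 156 with FEBJ, and 212 and 225 with cynaroside, so FEBJ straddled DMSO. Its rise of 0.42 ± 0.16 after cynaroside (edgeR adjusted p = 0.0311) was lost without DMSO library 1, DMSO library 2 or cynaroside library 2 (adjusted p = 0.0806, 0.163 and 0.203) and with DESeq2 (0.110). EIF2AK3 was also lower with FEBJ than with cynaroside, by -0.36 ± 0.16 (edgeR adjusted p = 0.0394), a call lost in 8 alternatives, among them leaving out FEBJ library 2 (0.322) or cynaroside library 2 (0.185).

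The EIF2AK2 opposite level was 123 and 84.5 CPM in DMSO, 51.9 and 60.4 with FEBJ, and 97.9 and 84.5 with cynaroside. Both FEBJ libraries lay below the other 4. It fell by 0.86 ± 0.25 after FEBJ (edgeR adjusted p = 0.00119), and the call was lost without DMSO library 1 (adjusted p = 0.0907). FEBJ lay 0.67 ± 0.25 below cynaroside (edgeR adjusted p = 0.0136), which was lost without FEBJ library 1 (0.0788), without cynaroside library 1 (0.0698) and with DESeq2 (0.0621).

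**Figure D2:**
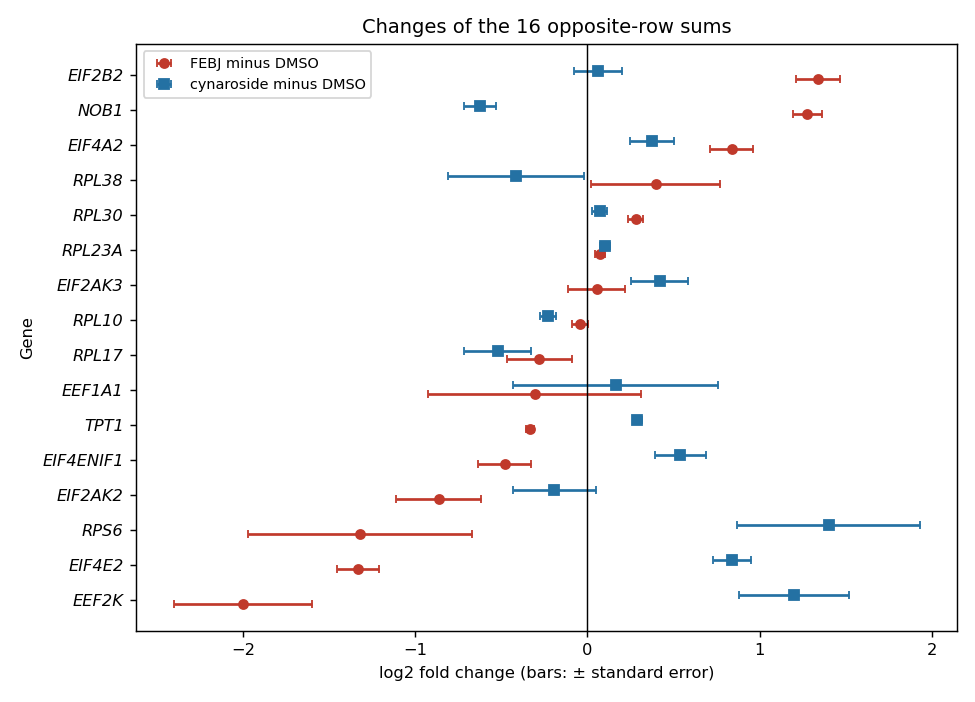
Log2 fold change of the opposite rows of the 16 genes after FEBJ and after cynaroside, both against the same DMSO libraries, with bars of 1 standard error. EIF2B2 and EEF2K hold the ends of the FEBJ values, and the ribosomal protein genes with the most counts lie near 0.

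EEF2K encodes the kinase that slows elongation by phosphorylating eEF2. In the opposite row it stood at 49.9 and 34.2 CPM in DMSO, 6.26 and 13.5 with FEBJ, and 96.5 and 94.4 with cynaroside, with no overlap between groups. It fell by 2.00 ± 0.40 after FEBJ (edgeR adjusted p = 4.10e-06) and rose by 1.20 ± 0.32 after cynaroside (edgeR adjusted p = 0.00109). The difference between FEBJ and cynaroside was -3.20 ± 0.38 (edgeR adjusted p = 8.41e-14), and 3.01% of the 1630 genes differed more. The rise after cynaroside was not called without DMSO library 2 (0.93, adjusted p = 0.057).

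EEF1A1, which encodes the factor that delivers aminoacyl-tRNA to the ribosome, had 114 opposite counts and lay just above the threshold of 100. Its level was 12.2 and 15.5 CPM in DMSO, 12.5 and 10.3 with FEBJ, and 11.2 and 18.5 with cynaroside. The groups overlapped and no comparison passed the test (edgeR adjusted p = 0.672, 0.856 and 0.501). The 3 genes nearest above the threshold were EEF1A1, RPS6 and RPL38, with 114, 157 and 304 opposite counts. The nearest below it were EIF4E with 42, RPL26L1 with 20 and RPS9 with 12.

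TPT1 encodes a translationally controlled TOP mRNA product, and its opposite row held 129655 counts over the 6 libraries. The level was 15900 and 15889 CPM in DMSO, 12559 and 12670 with FEBJ, and 19801 and 19089 with cynaroside. The groups were apart, FEBJ lowest and cynaroside highest, with log2 changes of -0.33 and 0.29 (-0.0968 and 0.73 with scaling by the deposited rows). NOB1 is the nuclease that finishes the 18S ribosomal RNA. The opposite row stood at 546 and 550 CPM in DMSO, 1372 and 1289 with FEBJ, and 375 and 344 with cynaroside. FEBJ was highest and cynaroside lowest, with log2 changes of 1.28 and -0.62 (1.51 and -0.17 with scaling by the deposited rows).

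The own rows of the families gave another picture, with far fewer counts per row. Of 126 family own rows tested against DMSO, 16 rose and 64 fell after FEBJ, where 50.8% of 12012 tested rows changed, 26% upward and 24.8% downward. After cynaroside 9 rose and 70 fell, where 45.4% of rows changed, 24.3% upward and 21.1% downward. Some rows passed the filter on low counts only through DMSO, such as EIF2S3 and EIF1AX, or only through FEBJ, such as EIF2AK3. Calls of such rows against that group were tilted toward a single direction by the filter. How many rows this holds for was not counted. The median change was -1.18 after FEBJ and -1.24 after cynaroside, against -0.06 and 0.02 over all rows. FEBJ against cynaroside gave 26 higher and 11 lower, where 41.9% of rows differed, 21.5% upward and 20.4% downward, with a median of 0.39 against 0.12. Rows with a group at 0 counts moved these family medians only in the last comparison, to 0.37, when set at the bound that 3 counts over the group allow.

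The ribosomal proteins were the most one-sided group by count. Among 75 tested own rows, 3 rose and 47 fell after FEBJ, and 2 rose and 47 fell after cynaroside, with medians of -1.34 and -1.63. Large subunit genes fell in 28 and 26 of 45 rows, and small subunit genes in 19 and 21 of 30. Of 43 initiation genes, 12 rose and 14 fell after FEBJ, and 6 rose and 19 fell after cynaroside. Family own rows together made up 0.614 and 0.599% of gene-row counts in DMSO, 0.412 and 0.419% with FEBJ, and 0.294 and 0.296% with cynaroside, so the groups did not overlap. Many of these genes have near-identical processed pseudogenes, and whether these affected the own-row counts was not tested.

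The own rows were also split by what lies opposite them. Of the 164 family genes, 97 have no exon opposite them, 40 lie opposite a coding gene and 27 opposite other exons. Among the 67 tested family rows with no opposite exon, 1 rose and 40 fell after FEBJ (59.7%), with a median of -1.44, and 0 rose and 42 fell after cynaroside (62.7%), with a median of -1.74. Of all 3892 tested protein-coding rows with no opposite exon, 12% rose and 34.6% fell after FEBJ and 8.48% rose and 39.1% fell after cynaroside, with medians of -1.03 and -1.41 (-1.02 and -1.38 with groups at 0 set at their bound). The 0 risers after cynaroside stayed 0 at an unadjusted edgeR p under 0.05 and with DESeq2. Of the 37 family rows opposite a coding gene, 12 rose and 14 fell after FEBJ (32.4 and 37.8%), with a median of -0.19. Of all 2493 such rows 37.5% rose and 18.4% fell, with a median of 0.33. After cynaroside 7 family rows rose and 17 fell (18.9 and 45.9%), with a median of -0.55, where 35.3% of all such rows rose and 13.8% fell, with a median of 0.26. Of the 22 family rows opposite other exons, 3 rose and 10 fell after FEBJ and 2 rose and 11 fell after cynaroside, where 21.0 and 22.5% and then 16.1 and 26% of 1849 such rows did. Among the ribosomal proteins alone the share that fell was 65.2% of 46 rows with no opposite exon, 58.8% of 17 opposite a coding gene and 58.3% of 12 opposite other exons after FEBJ, and it was 65.2, 64.7 and 50% after cynaroside. Whether the family rows differ from the other coding rows of their class was not tested.

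**Figure D3:**
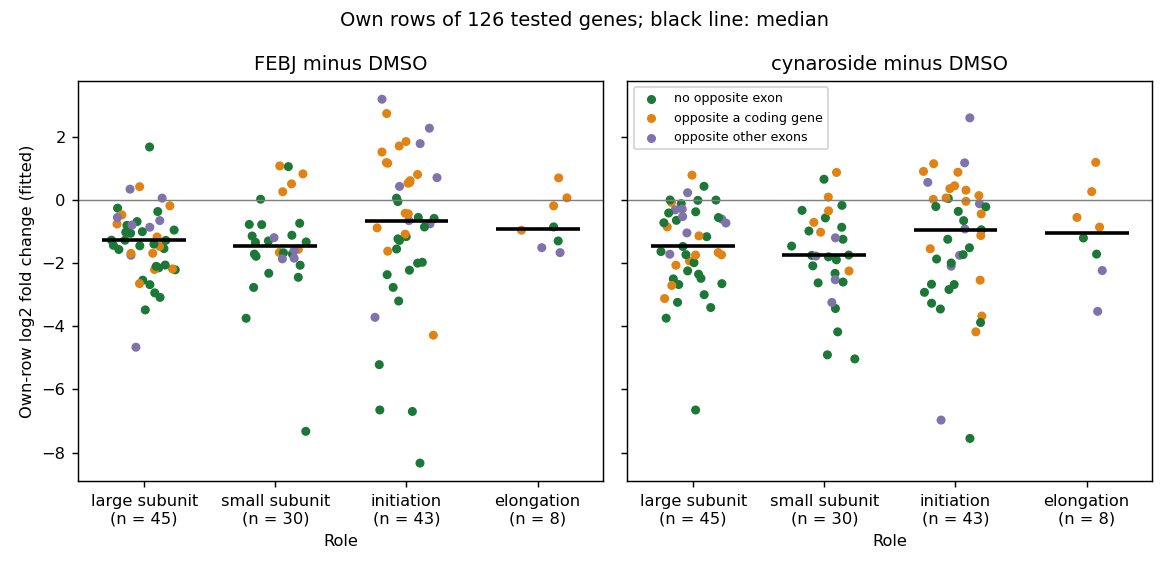
Fitted log2 fold change of the own rows of 126 family genes by role, with FEBJ against DMSO on the left and cynaroside against DMSO on the right; each point is a gene, coloured by what lies opposite it, and black lines are medians. Most ribosomal protein rows lie below 0, and the initiation genes above 2 after FEBJ lie opposite a coding gene or other exons; fitted values below about -5 rest on groups with almost no counts.

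The own rows with the highest mean CPM were those of RPL10, EEF1A1, EEF2KMT, EIF2AK1, RPS29 and EIF5B. EEF1A1 stood at 562 and 587 CPM of the deposited rows in DMSO, 179 and 223 with FEBJ, and 132 and 116 with cynaroside. It fell by 1.51 ± 0.11 after FEBJ (edgeR adjusted p = 6.84e-13) and fell by 2.23 ± 0.11 after cynaroside (edgeR adjusted p = 5.63e-15). The other 5 lie opposite a coding gene: RPL10 opposite DNASE1L1, EEF2KMT opposite ALG1, EIF2AK1 opposite AIMP2, RPS29 opposite LRR1 and EIF5B opposite REV1. EIF2AK1 encodes HRI, the eIF2 kinase that senses haem, and its row stood at 168 and 157 CPM in DMSO, 358 and 368 with FEBJ, and 176 and 180 with cynaroside. It rose by 1.16 ± 0.10 after FEBJ (edgeR adjusted p = 1.06e-10). RPS29 rose by 0.83 ± 0.11, EEF2KMT, a methyltransferase of eEF2, by 0.70 ± 0.10, and EIF5B, which joins the subunits, by 0.55 ± 0.13 (edgeR adjusted p = 0.000966). The EIF5B call after FEBJ was lost without DMSO library 2 (adjusted p = 0.0748) and without FEBJ library 1 (0.0564).

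The largest risers among own rows with at least 5 CPM on average after FEBJ were EIF2AK3, EIF3J and EIF2B2. EIF3J, a loosely bound part of the eIF3 complex that lies opposite SPG11, stood at 37.1 and 42.3 CPM in DMSO, 267 and 266 with FEBJ, and 53.5 and 47.1 with cynaroside. It rose by 2.74 ± 0.15 after FEBJ (edgeR adjusted p = 2.02e-15), and the change of 0.31 ± 0.17 after cynaroside was not called (edgeR adjusted p = 0.128). EIF2AK3 stood at 0.707 and 2.43 CPM in DMSO, 13.5 and 17.3 with FEBJ, and 0 and 1.26 with cynaroside. The log2 change after FEBJ was 3.19. No test is read from it, because the FEBJ libraries alone brought the row over the filter on low counts. EIF2B2 stood at 0.707 and 5.83 CPM in DMSO, 17.5 and 17 with FEBJ, and 13 and 28.5 with cynaroside; it rose by 2.27 ± 0.56 and by 2.60 ± 0.56 (edgeR adjusted p = 0.00135 and 0.000456). After cynaroside EIF2AK2 and EIF4ENIF1 followed, with rises of 1.18 ± 0.42 and 1.15 ± 0.29 (edgeR adjusted p = 0.0245 and 0.00199; 0.168 and 0.0548 with the scaling of the opposite rows). The EIF2AK2 rise was lost without DMSO library 1, DMSO library 2 or cynaroside library 2 (adjusted p = 0.0596, 0.157 and 0.278) and with DESeq2 (0.0643).

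Among own rows with at least 5 CPM on average, the deepest falls were in initiation genes and in 2 ribosomal protein genes. EIF4G2, a scaffold for cap-independent initiation, stood at 64.3 and 59.1 CPM in DMSO, 2.79 and 3.4 with FEBJ, and 2.74 and 5.8 with cynaroside, and fell by 4.28 ± 0.39 and 3.68 ± 0.38 (edgeR adjusted p = 2.89e-10 and 8.49e-09). Its row lies opposite the coding gene CTR9. EIF2S3, the gamma subunit of eIF2, stood at 12 and 14.1 CPM in DMSO and held 0 counts in both FEBJ libraries. It was at least 26.7-fold lower after FEBJ, against a floor of 3 counts over the group. EIF1AX, which helps the small subunit scan for the start codon, held 92 counts in DMSO and 2 after FEBJ, a 40-fold lower level with a 95% exact binomial interval of 10.8 to 335 that covers counting error only. The rows of EIF2S3 and EIF1AX passed the filter on low counts only through their DMSO libraries, and no test is read from their falls. RPL21 stood at 46.3 and 36.5 CPM in DMSO, 3.98 and 3.4 with FEBJ, and 0 and 4.54 with cynaroside; it fell by 3.48 ± 0.51 and 3.74 ± 0.53 (edgeR adjusted p = 1.45e-06 and 1.75e-06). RPS26 held 88 counts in DMSO and 2 after cynaroside, a 34.4-fold lower level with an interval of 9.24 to 288. EIF4G3, a scaffold of the cap-binding complex, fell by 3.88 ± 0.75 after cynaroside (edgeR adjusted p = 0.000139), from 14.5 and 14.6 to 1.37 and 0.756 CPM.

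The readings of a gene from its own row and from its opposite rows could go apart. How often they do so over all genes was not counted, so this is not read as a trait of the family. In the 13 family genes, 11 comparisons were called in both rows, 8 of them in opposite directions and 3 in the same. The 8 include EIF2AK3 between FEBJ and cynaroside, whose own row passed the filter on low counts only through FEBJ. Each reading had its own scaling, and these directions depend on it. With the opposite rows scaled by the deposited rows, RPL10 turned to 0.21 after cynaroside, the direction of its own row. RPL10 and RPL30 then differed between FEBJ and cynaroside by -0.0199 and -0.000352, and the EIF4ENIF1 fall after FEBJ was not called. RPL10 rose by 0.79 ± 0.09 in its own row after cynaroside (edgeR adjusted p = 8.22e-08), from 395 and 375 to 620 and 702 CPM, and fell in its opposite row. RPL30 fell by 1.75 ± 0.38 in its own row after FEBJ (edgeR adjusted p = 0.000398), from 31.1 and 27.2 to 6.76 and 10.2 CPM, and rose in its opposite row. EIF4ENIF1 rose by 1.71 ± 0.28 in its own row after FEBJ (edgeR adjusted p = 7.24e-06), from 16.3 and 19.4 to 44.6 and 72.3 CPM, and fell in its opposite row. The own row of EIF4ENIF1 lies opposite the coding gene SFI1. After cynaroside the own rows of RPL23A and EIF4A2 fell by 1.04 and 2.10 (edgeR adjusted p = 0.0120 and 0.0136), and their opposite rows rose. The own row of RPS6 fell by 2.52 (edgeR adjusted p = 3.24e-07), where its opposite level was higher than in DMSO. The own-row call of RPL23A was lost without DMSO library 1 or cynaroside library 1 (adjusted p = 0.127 and 0.0815), and that of EIF4A2 without DMSO library 1 or cynaroside library 2 (0.0594 and 0.184). With FEBJ against cynaroside, RPL10 and RPL30 were lower in their own rows by -1.55 and -1.23 (edgeR adjusted p = 6.07e-14 and 0.0138), each against the direction of the opposite row. The own row of EIF2AK3 was 4.11 higher with FEBJ, also against its opposite row, and no test is read from it. The RPL30 difference was lost without FEBJ library 1 or cynaroside library 2 (adjusted p = 0.112 and 0.301). The readings went together for EIF2B2, which rose in both rows after FEBJ, for EIF4ENIF1, which rose in both after cynaroside (0.54 and 1.15), and for EIF2AK2, lower in both with FEBJ than with cynaroside (-0.67 and -1.93). TPT1's own row stood at 152 and 148 CPM in DMSO, 41.4 and 53.9 with FEBJ, and 22 and 29.5 with cynaroside. Its own and opposite rows were both lower after FEBJ than in DMSO (-1.64 and -0.33), and after cynaroside the own row was lower and the opposite row higher (-2.49 and 0.29).

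Among the genes with the most counts, the own row was a small part of the pair for TPT1 and RPL23A and a larger part for RPL10. The part differed between groups. The own row of TPT1 held 2.55 and 2.47% as many counts as the opposite row in DMSO, 0.741 and 0.963% with FEBJ, and 0.226 and 0.291% with cynaroside. For RPL23A the values were 0.865 and 0.707%, 0.406 and 0.4%, and 0.214 and 0.283%. For RPL10, whose own row also lies opposite a coding gene, they were 31.9 and 31%, 14.9 and 17.4%, and 44.9 and 48.4%. In EEF1A1 the own row held more counts than the opposite row in every library. These shares compare rows of different length. The opposite rows of the 14 family genes made up 1.87 and 1.81% of all opposite-row counts in DMSO, 2.28 and 2.32% with FEBJ, and 2.00 and 2.03% with cynaroside.

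**Figure D4:**
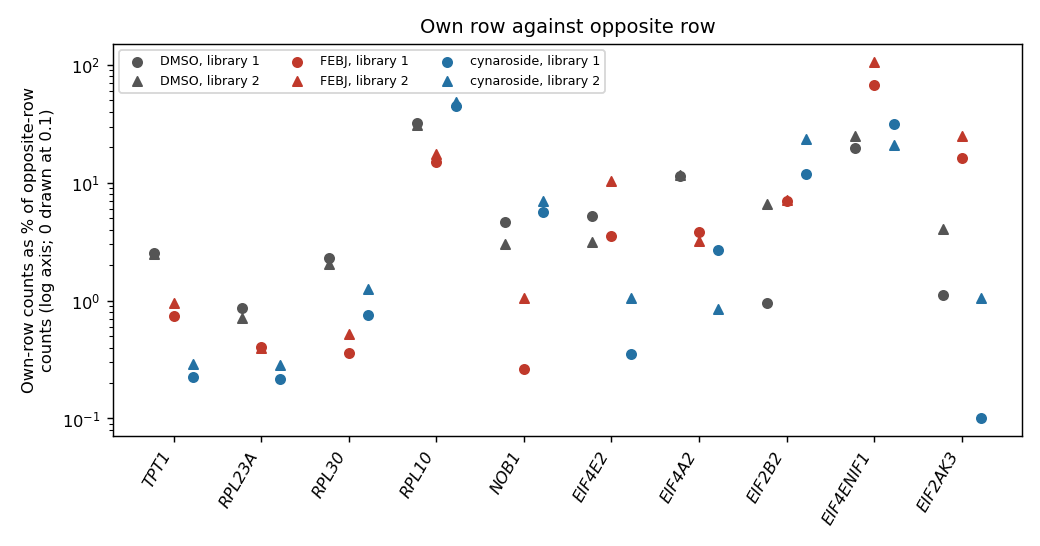
Counts of the own row as a percentage of the counts of the opposite rows in each library, on a log axis, for 10 genes with at least 1000 opposite counts (RPL17, whose own row held 5 counts in all, is not drawn); a library at 0 is drawn at 0.1. TPT1 and RPL23A are lower in both treated groups than in DMSO, and RPL10 and NOB1 are lowest after FEBJ.

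Other genes of the ribosome and its control were counted from 12 lists, of which 9 had a member read from opposite rows. Of 8 read genes for mitochondrial ribosomal proteins, 6 rose and 0 fell after FEBJ, with a median of 1.04, where 35.1% of all 1630 genes rose and 35.2% fell with a median of -0.0048; 0 also fell at an unadjusted edgeR p under 0.05 and with DESeq2. MRPS9 went from 493 and 527 to 1336 and 1237 CPM, a rise of 1.33 ± 0.08 (edgeR adjusted p = 1.14e-34), and MRPS2 from 796 and 808 to 1529 and 1719 CPM, a rise of 1.02 ± 0.07 (edgeR adjusted p = 2.31e-30). After cynaroside, where 20.7% of all genes rose and 20.3% fell, 1 of the 8 rose, MRPS9 by 0.40 ± 0.09, and 2 fell, MRPL4 by 0.37 ± 0.11 and MRPL9 by 0.36 ± 0.11. Both falls were lost without DMSO library 2 (edgeR adjusted p = 0.0706 and 0.153) and turned with scaling by the deposited rows, and that of MRPL9 was lost without cynaroside library 2 (0.155). Of 4 small subunit assembly factors, 3 rose after FEBJ, against the 35.1% of all genes: RRP12 by 1.36 ± 0.22, RIOK2 by 1.24 ± 0.24 and, named after its values were seen, DDX52 by 0.40 ± 0.13. MDN1, an ATPase of large subunit assembly, was the one gene of its list that could be read and fell by 1.35 ± 0.32 after FEBJ.

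Among the regulators, RPS6KB2, an S6 kinase of the mTORC1 pathway, went from 953 and 965 CPM to 2210 and 2168 after FEBJ, a rise of 1.19 ± 0.06 (edgeR adjusted p = 1.21e-41), and rose by 0.21 ± 0.07 after cynaroside, a call lost without cynaroside library 1 (edgeR adjusted p = 0.130). The other 3 read genes of that pathway were called in neither comparison with DMSO. Of all 1630 genes, 35.1% rose and 35.2% fell after FEBJ, and 20.7% rose and 20.3% fell after cynaroside. The counts of the short lists here stand beside those shares and were not tested against them. Of 4 other regulators of initiation, PAIP2 and DHX29 rose by 0.66 ± 0.06 and 0.48 ± 0.20 after FEBJ and GIGYF2, a partner of 4EHP, fell by 0.60 ± 0.27 (edgeR adjusted p = 0.0402). The DHX29 call was lost without DMSO library 2 or FEBJ library 1 (adjusted p = 0.618 and 0.0679) and with DESeq2 (0.116). The GIGYF2 call was lost without DMSO library 1, FEBJ library 1 or cynaroside library 2 (0.342, 0.588 and 0.0719) and with DESeq2 (0.148), and its FEBJ and DMSO libraries overlapped. MKNK1, an eIF4E kinase, rose by 0.64 ± 0.18 after cynaroside. Of the genes that deal with stalled ribosomes, ZNF598 rose by 0.84 ± 0.08 and MAP3K20 fell by 1.34 ± 0.16 after FEBJ. Of 4 aminoacyl-tRNA synthetases, CARS1 rose by 0.42 ± 0.12 after FEBJ (not called without FEBJ library 1, edgeR adjusted p = 0.0542) and GARS1 fell by 0.45 ± 0.12 (not called with scaling by the deposited rows, 0.119), and 0 of the 4 were called after cynaroside by edgeR or DESeq2, where 1, GARS1, had an unadjusted edgeR p under 0.05 (0.0474). POLR1H, a subunit of RNA polymerase I, rose by 0.93 ± 0.18 after FEBJ and fell by 0.86 ± 0.20 after cynaroside (edgeR adjusted p = 0.0908 with scaling by the deposited rows). VLDLR, the gene of the stress-response list that could be read, stood at 6.59 and 21.9 CPM in DMSO, at 0 in both FEBJ libraries and at 57.3 and 26.6 after cynaroside.

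In their own rows, the 11 ribosomal and TOP mRNA genes outside the name rule fell in 9 cases after FEBJ and in 8 after cynaroside, where 24.8 and 21.1% of all tested own rows fell. Those rows include non-coding ones. Of protein-coding rows, 18.4 to 34.6% fell after FEBJ and 13.8 to 39.1% after cynaroside, by what lay opposite them. The highest shares were in rows with no opposite exon. Whether the 11 genes differ from other coding rows was not tested. In neither comparison did any rise, with edgeR at an unadjusted p under 0.05 (0) or with DESeq2 (0). HNRNPA1, an RNA-binding protein with a TOP mRNA, went from 83.4 and 78.5 CPM in DMSO to 2.39 and 6.52 after FEBJ and 5.49 and 4.54 after cynaroside. PABPC1, the poly(A)-binding protein, fell by 3.31 ± 0.40 after FEBJ (edgeR adjusted p = 5.03e-08). Of 22 aminoacyl-tRNA synthetases, 5 rose and 10 fell after FEBJ and 3 rose and 15 fell after cynaroside, where 26 and 24.3% of all own rows rose. Of 38 tested mitochondrial ribosomal protein rows, 6 rose and 7 fell after FEBJ and 5 rose and 8 fell after cynaroside, with medians of -0.17 and -0.42. Fewer of them were called than the 50.8 and 45.4% of all own rows that changed.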

How the data were processed

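The authors deposited 1 table of raw read counts per gene for each of the 6 libraries, per the file headers and values. Per the submitters' processing notes, the tools were CASAVA 1.7, HISAT2, HTSeq 0.12.4 and DESeq2 1.38.0 with hg19; strand setting, kit and annotation release are not given in the sources used here. Each table had 62754 gene rows, and its summary rows entered neither library sizes nor tests. Opposite rows were found by exon overlap in GENCODE release 29 on GRCh38 and summed per gene. Both tables went through edgeR 4.0.16 (R 4.3.3) as follows: filterByExpr, TMM, 3 group means over all 6 libraries with 3 residual degrees of freedom, the quasi-likelihood test, and Benjamini-Hochberg adjustment over all 1630 genes or 12012 rows, called at 0.05. The code was tested on simulated data. Genes were named by size of change, highest mean, nearness to the threshold and disagreement of the readings, and list genes by smallest p. Members and lists were chosen with earlier results of these data known. Alternatives were DESeq2 1.42.0, other scalings, filters, prior counts and overlap rules, and leaving out each library. Same-numbered libraries did not deviate together (correlations of -0.0125, 0.0015 and -0.0068), so the numbers did not pair them. Within groups the mean chi-square per row was 3.03 to 3.19, so libraries of a group differed by more than counting noise. A row with a signal that was left out of the reading is not reported here.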

Additional observations from a re-analysis of the deposited data

Results flagged for a closer look

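Rows opposite 2 coding genes at once were left out of the reading. The 3 given here lie opposite a gene of the translation machinery and held a signal above both DMSO libraries in at least 1 treated group. Levels are in CPM of the deposited rows, and the ratios are of group means with no test. For the row opposite EIF2B4 and GTF3C2 the ratios were 1.95 for FEBJ and 1.13 for cynaroside. The row opposite EIF4B and TNS2 was 0.905 times DMSO after FEBJ and 1.89 times after cynaroside. The row opposite EEF1D and NAPRT was 1.52 times DMSO after FEBJ and 1.67 times after cynaroside. Which of the genes in a pair such a row reads cannot be told apart.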

How the results depend on the processing

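Counts of opposite rows here include RPS6; leaving it out, chosen after seeing the data, gave 6 risers after cynaroside and 5 genes lower with FEBJ than with cynaroside and left the other 4 counts as they were. Of 12 counts of risen and fallen family genes, 6 stayed within 1.5 times their value under every alternative run. In the opposite rows, the 7 risers after cynaroside became 4 with DESeq2 and 2 to 7 with a library left out; the 2 fallers became 1 with DESeq2, 0 with scaling by the deposited rows and 1 to 2 with a library left out. With FEBJ against cynaroside, the 4 higher genes became 1 with scaling by the deposited rows, and the 6 lower became 3 of the 10 genes with 500 or more counts. In the own rows, the 9 risers after cynaroside became 5 with RLE scaling, 4 with upper-quartile scaling, 5 without a filter, 5 with the 4 libraries compared, 5 with DESeq2, 3 with the scaling of the opposite rows and 4 to 10 with a library left out; the 26 rows higher with FEBJ than with cynaroside became 40 with the scaling of the opposite rows. Scaling by the deposited rows turned RPL10 to 0.19 after FEBJ, 0.21 after cynaroside and -0.0199 between them, RPL30 to -0.000352 between FEBJ and cynaroside, and after cynaroside CARS1 to 0.42, PAIP2 to 0.40, ZNF598 to 0.15, MRPL4 to 0.0861 and MRPL9 to 0.0912. The scaling of the opposite rows moved the median of all own rows by -0.24 after FEBJ and -0.44 after cynaroside, and turned the own rows of EEF2KMT to -0.18, EIF2AK1 to -0.31, RPS29 to -0.36 and EIF5B to -0.0883 after cynaroside. The fitted EIF2S3 difference between FEBJ and cynaroside ran from -5.83 to 0 with a library left out, and was 0 without cynaroside library 2, which held all of its treated counts. Among single genes, 68 of 1564 opposite-row and 60 of 1121 own-row values under an alternative lost their call and 23 and 26 gained one; apart from the rescalings and smaller sets of libraries, the cause was not tested. A replicate block, although the numbers pair no samples, gave 61 and 68 fallen own rows in place of 64 and 70, the same counts of opposite rows, and the same call for all 159 single results. Over all own rows, 2917 rose and 2537 fell after cynaroside, against 1465 and 3769 with the scaling of the opposite rows and 2260 and 3015 with upper-quartile scaling. Depth limits RPS6, EEF1A1, RPL38 and EEF2K, with under 500 opposite counts each.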
